A study of Mus musculus with 6 samples.

Results

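The zinc transporters and metallothioneins of the mouse prostate were compared between 3 control mice (CON group) and 3 mice given testosterone and estradiol (T + E2 group). The genes were chosen by symbol alone: the ZIP family (Slc39a), the ZnT family (Slc30a), the divalent metal transporters Slc11a1 and Slc11a2, the metallothioneins Mt1 to Mt4 and the zinc-sensing transcription factor Mtf1. This rule found 31 of the 34745 genes of the deposited table, namely 14 ZIP genes, 10 ZnT genes, 2 Slc11a genes, 4 metallothioneins and Mtf1, and 26 of them were among the 15580 genes with enough reads to be tested.

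All mice were C57BL/6 males that were 6 to 8 weeks old when the study began. The T + E2 group carried slow-release pellets of both hormones under the skin for 12 weeks, while the CON group only had its skin incised and closed. The sample labels speak of 1 pellet per mouse, whereas the study's methods describe monthly replacement. RNA came from prostate tissue as a whole, 1 library per mouse, and the design asks which mRNAs differ in a hormone-induced model of benign prostatic hyperplasia.

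ZIP proteins carry zinc into the cytosol, from outside the cell or out of organelles, and ZnT proteins carry it the other way, out of the cell or into vesicles and the Golgi. Metallothioneins are small cysteine-rich proteins that bind zinc, copper and cadmium in the cytosol, and their genes are switched on when zinc binds the transcription factor MTF1, which then occupies metal response elements near their start sites. The prostate is known for an unusually high zinc content, which its secretory epithelium accumulates and releases into the prostatic fluid.

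The metallothionein genes lie side by side on chromosome 8, in the order Mt4, Mt3, Mt2 and Mt1 along the plus strand (build GRCm38). Mt1 spans chr8:94179089-94180325 and Mt2 spans chr8:94172618-94173567 in the deposited table. The sequences before the RefSeq starts of both genes are shown because these genes carried most of the metallothionein reads and both fell in the T + E2 group. Letters in capitals match the core of the metal response element, TGCACNC or TGCGCNC, on either strand. The lines give 250 bases before each start and the first 30 bases after it, on the plus strand, from the RefSeq windows of GRCm38.p6: chr8:94178839-94179088 and chr8:94179089-94179118 for Mt1, then chr8:94172368-94172617 and chr8:94172618-94172647 for Mt2.
Mt1, before the start: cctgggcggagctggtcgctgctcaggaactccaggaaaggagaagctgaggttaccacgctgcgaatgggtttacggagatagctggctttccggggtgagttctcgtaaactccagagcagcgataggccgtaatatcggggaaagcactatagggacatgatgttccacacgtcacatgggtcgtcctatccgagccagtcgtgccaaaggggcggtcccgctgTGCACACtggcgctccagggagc
Mt1, after the start: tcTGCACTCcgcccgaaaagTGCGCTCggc
Mt2, before the start: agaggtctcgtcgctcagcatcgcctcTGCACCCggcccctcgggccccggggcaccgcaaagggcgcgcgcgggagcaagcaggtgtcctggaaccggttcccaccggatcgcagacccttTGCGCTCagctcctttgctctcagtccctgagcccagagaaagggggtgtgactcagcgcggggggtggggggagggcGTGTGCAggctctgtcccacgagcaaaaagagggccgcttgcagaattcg
Mt2, after the start: ggtcGTGCGCAggcccaggggcgtgtgctg

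Matches were counted over the window from 250 bases before to 50 bases after the RefSeq start. Mt1 held 3 matches, whose first bases lay at -23, 3 and 21 from that start. Mt2 held 4 matches, at -223, -128, -50 and 5. Of all 32851 RefSeq windows of this length, 8444 (25.7%) held at least 1 match, 1.97% held at least 3 and 0.517% held at least 4. Among the genes studied here 26 had a window and 15 of these (57.7%) held a match, or 16 of their 31 windows (51.6%), since some genes have more than 1. In their RefSeq windows the exporter genes Slc30a4 and Slc30a10 held 3 matches each, with a pair overlapping in Slc30a10. Neither gene passed the test, and a relation between the number of matches and the change was not tested. Slc30a1 and Slc30a2 held 2 each, and Mt3 and Mt4 held 1 each. No match was found in the window of Mtf1 itself. A match is a description of the letters and not evidence that a factor binds there. The positions and counts hold for windows set on the RefSeq starts and can differ with another start. The GENCODE annotation starts Mt1 at chr8:94179082 and Mt2 at chr8:94172664. Elements outside these windows were not counted, and which start the prostate uses was not tested.

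Reads counted on genes totalled 14816146 to 16555549 per mouse, so that 3 counts, taken as the smallest detectable amount, correspond to 0.183 to 0.208 counts per 1000000 counted reads (CPM), a limit that covers counting error only. Prostate secretory genes were present in every library (summed level of 6 genes 35789.5 to 49254 CPM in the CON group and 11359 to 14142 CPM in the T + E2 group), with Pbsn and Tgm4 lower and Msmb higher in the T + E2 group. Transcripts typical of the seminal vesicle, the gland next to the prostate, stood apart in CON mouse 2, at 10288 CPM summed over 6 genes, and in T + E2 mouse 2, at 642 CPM, against 0.629 to 3.84 CPM in the other 4 mice. CON mouse 2 also held the highest sums of adipocyte (332 CPM) and skeletal muscle (279 CPM) genes. Calls that were lost without these 2 mice are named beside the results below.

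Of the 26 tested genes, 1 was higher and 7 were lower in the T + E2 group at an adjusted p under 0.05 (edgeR quasi-likelihood test, Benjamini-Hochberg adjustment over all tested genes). Across all tested genes 10.4% were higher and 9.25% were lower by the same test. Differentially expressed genes (DEGs), which in addition changed by more than 1 on the log2 scale, numbered 1 higher (Slc39a11) and 4 lower (Mt1, Slc30a2, Slc39a4 and Slc39a8), where all tested genes gave 4.27% higher and 3.38% lower. Without both mice that held seminal vesicle transcripts, 1 gene was higher and 4 were lower, and these were the same 5 DEGs. The groups did not overlap in 19 of the 26 genes, 7 of them higher and 12 lower in the T + E2 group, compared with 40.7% of all tested genes. The median log2 fold change of the 26 genes was -0.21, against -0.00207 for all tested genes, and it was -0.28 for the 12 tested ZIP genes and 0.06 for the 8 tested ZnT genes.

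**Figure D1:**
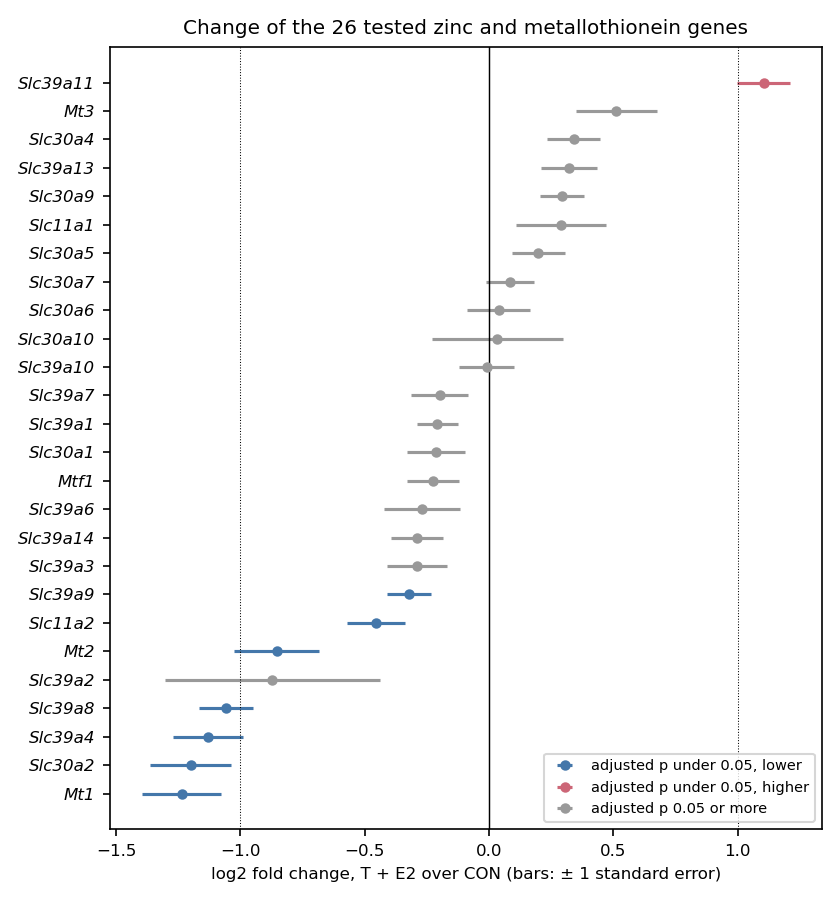
Log2 fold change (T + E2 over CON, horizontal axis) of each of the 26 tested genes, with bars of 1 standard error; colours mark an adjusted p under 0.05 and dotted lines the DEG threshold. Slc39a11 is the 1 gene higher at an adjusted p under 0.05, at 1.10, and Mt1 lies lowest, at -1.24.

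The metallothioneins Mt1 and Mt2 were by far the most abundant mRNAs of the set and both fell in the T + E2 group. Mt1 stood at 851, 931 and 1073 CPM in the CON mice and at 495, 367 and 349.5 CPM in the T + E2 mice. Every T + E2 mouse lay below every CON mouse, and Mt1 was 2.36-fold lower (951.7 ± 112 CPM against 404 ± 79.6 CPM, SD, n = 3 each), a log2 fold change of -1.24 (SE 0.16, adjusted p = 0.0016). Without both mice with seminal vesicle transcripts the log2 fold change was -1.19 (adjusted p = 0.0254). In bulk tissue, fewer cells of a type and less RNA per cell cannot be told apart, which holds for every gene described here. The prostate secretory genes Pbsn and Tgm4 were lower in the same mice. The sums over 6 macrophage genes were 164 to 244 CPM in the CON group and 256 to 380.5 CPM in the T + E2 group. Of these 6 genes 2 passed the test, Mrc1 and Cd14, both higher, where all tested genes gave 10.4% higher and 9.25% lower. Adgre1, Cd68, Csf1r and Lyz2 did not pass and overlapped between the groups. The part of cell differences in the metallothionein result was not tested.

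Mt2 stood at 766, 809 and 976 CPM in the CON mice and at 557, 492 and 362 CPM in the T + E2 mice. The groups did not overlap here either, and Mt2 was 1.81-fold lower, with a log2 fold change of -0.85 (SE 0.17, adjusted p = 0.0116). Leaving out both mice with seminal vesicle transcripts kept the size of the difference (-0.92) but not the call (adjusted p = 0.0714). An antisense gene, Gm45774, overlaps 73.5% of the exonic bases of Mt2. The deposited counts hold no read for it. Whether reads were counted by strand is not given in the sources used here, so this does not settle how reads in the shared bases were counted. Together Mt1 and Mt2 took 0.165, 0.178 and 0.203% of all counted reads in the CON mice, compared with 0.1005, 0.0853 and 0.0719% in the T + E2 mice.

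The balance of this pair also differed. There were 1.11, 1.15 and 1.10 Mt1 reads for each Mt2 read in the CON mice, compared with 0.890, 0.746 and 0.966 in the T + E2 mice. Mt1 thus outnumbered Mt2 in each CON mouse and Mt2 outnumbered Mt1 in each T + E2 mouse. The means were 1.12 ± 0.0274 and 0.867 ± 0.112 (SD, n = 3 each), with a two-sided exact permutation p = 0.1, which is the smallest that 3 mice against 3 can give.

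**Figure D2:**
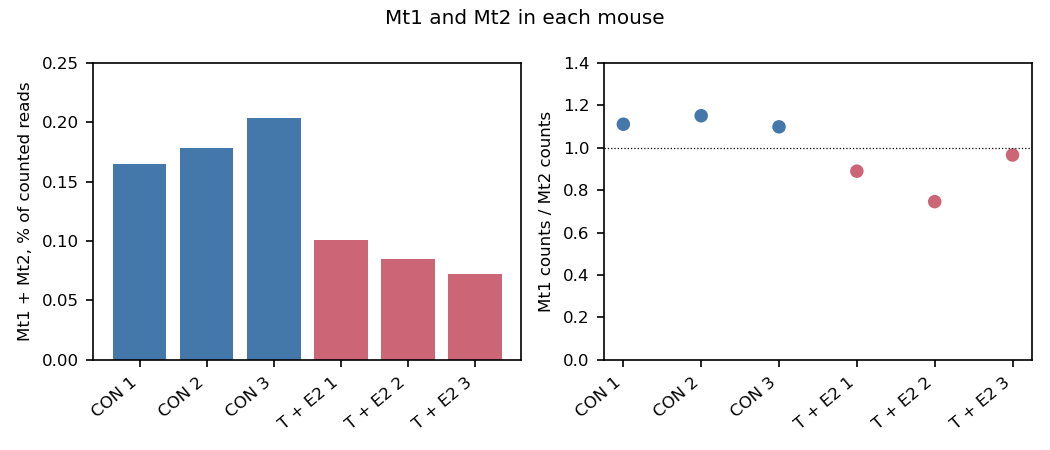
Left, bars give the share of counted reads (%) taken by Mt1 and Mt2 together in each mouse; right, points give the Mt1 counts divided by the Mt2 counts, with a dotted line at 1. The 3 CON mice lie at 0.165 to 0.203% and ratios of 1.10 to 1.15, and the 3 T + E2 mice at 0.0719 to 0.1005% and ratios of 0.746 to 0.966.

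Mt3, a metallothionein first described in brain, did not pass the test and its values pointed the other way. It stood at 5.36, 6.24 and 6.35 CPM in the CON mice and at 9.27, 8.83 and 7.54 CPM in the T + E2 mice, so that the groups did not overlap (log2 fold change 0.51, SE 0.16, adjusted p = 0.0616). By limma on log2(FPKM + 0.1) the adjusted p was 0.0221. Mt4, known from stratified squamous epithelium, was at 0 counts in 5 mice and at 2 counts in T + E2 mouse 3, under the detection limit.

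Mtf1, which encodes the zinc sensor that drives metallothionein genes, was at 29.7, 29.4 and 30.6 CPM in the CON mice and at 25.2, 22.9 and 28.6 CPM in the T + E2 mice. The groups did not overlap but the difference did not pass the test (log2 fold change -0.23, SE 0.11, adjusted p = 0.174). The same was true of Slc30a1, the exporter of the plasma membrane and a textbook MTF1 target, which had a log2 fold change of -0.21 (SE 0.12, adjusted p = 0.239).

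Among the ZIP genes, 1 was higher and 3 were lower in the T + E2 group, of 12 tested. The shares among all tested genes were 10.4% higher and 9.25% lower. Slc39a11 encodes ZIP11, a distant member of the family that has been placed in the Golgi and the nucleus. Of the whole set, only this gene passed the test as higher. It stood at 59.5, 62.6 and 68.7 CPM in the CON mice and at 149.5, 136 and 125 CPM in the T + E2 mice. The lowest T + E2 mouse was well above the highest CON mouse, and the gene was 2.15-fold higher (log2 fold change 1.10, SE 0.11, adjusted p = 0.000374). Its log2 fold change stayed between 1.02 and 1.17 under all alternatives that were run.

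Slc39a8 and Slc39a4 encode importers of the plasma membrane, and both were more than 2-fold lower in the T + E2 group. Slc39a8 (ZIP8, which also carries manganese, iron and cadmium) stood at 197, 154 and 175 CPM in the CON mice and at 82.7, 85.2 and 84.95 CPM in the T + E2 mice. The T + E2 mice were closely grouped below all CON mice, and the gene was 2.08-fold lower (log2 fold change -1.06, SE 0.11, adjusted p = 0.000536). Slc39a4 (ZIP4, the importer that takes up dietary zinc in the intestine) was less abundant, at 18.7, 16.0 and 20.0 CPM in the CON mice and 7.89, 7.85 and 9.21 CPM in the T + E2 mice. Again no T + E2 mouse reached the lowest CON mouse, and the gene was 2.19-fold lower (log2 fold change -1.13, SE 0.14, adjusted p = 0.0013).

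Slc39a9 encodes ZIP9, a ZIP protein of the Golgi and cell surface that has also been described as a membrane androgen receptor. It stood at 205, 203 and 218 CPM in the CON mice and at 180.2, 161 and 160.0 CPM in the T + E2 mice. The groups did not overlap, but the difference was small (1.25-fold lower, log2 fold change -0.32, SE 0.09, adjusted p = 0.0381). The call was lost when any single mouse was left out (adjusted p 0.0601 to 0.121), without both mice with seminal vesicle transcripts (0.173) and without the filter on low counts (0.0558). The exons of Slc39a9 share 459 bases with Erh on the opposite strand, and whether the reads were counted by strand is not given in the sources used here.

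The other 8 tested ZIP genes did not pass the test. Slc39a1, the general importer of the plasma membrane, stood at 82.2, 86.8 and 89.8 CPM in the CON mice and at 75.3, 73.0 and 75.9 CPM in the T + E2 mice (log2 fold change -0.21, SE 0.08, adjusted p = 0.121). Its groups did not overlap, which was also true of Slc39a3 (-0.29) and of Slc39a14 (-0.29), an importer of zinc, manganese and iron best known from liver. Slc39a13, whose product serves connective tissue cells, had a log2 fold change of 0.32 (adjusted p = 0.0841), again with no overlap. Its exons share 215 bases with Psmc3 on the opposite strand, which had 14379 counts over all mice against 3689 for Slc39a13. Whether these were counted by strand is not known.

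Slc39a7, which releases zinc from the endoplasmic reticulum, stood at 161, 194 and 186 CPM in the CON mice and at 176, 140.2 and 155 CPM in the T + E2 mice, with overlapping groups. The same-strand transcript Gm20427 covers 80.7% of its exonic bases, and the log2 fold change of -0.20 (adjusted p = 0.261) became -0.02 (adjusted p = 0.922) when the reads of both were summed. Slc39a6 (-0.27) and Slc39a10 (-0.01), a closely related pair of importers, also overlapped between groups. Slc39a6 passed the test when T + E2 mouse 3 was left out (log2 fold change -0.46, adjusted p = 0.0312). Slc39a2 was barely detected, at 0.596, 1.25 and 1.76 CPM in the CON mice and 0.761, 0.609 and 0.601 CPM in the T + E2 mice, and its exons share 151 bases with Mettl17 on the same strand.

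Among all tested genes 10.4% were higher and 9.25% were lower, and of the 8 tested ZnT genes only Slc30a2 passed the test. It encodes ZnT2, which loads zinc into vesicles and is known for secreting zinc into milk. Slc30a2 stood at 83.5, 113 and 90.4 CPM in the CON mice and at 37.5, 50.4 and 37.0 CPM in the T + E2 mice. No T + E2 mouse reached the CON range, and the gene was 2.30-fold lower (log2 fold change -1.20, SE 0.16, adjusted p = 0.00199). Without both mice with seminal vesicle transcripts the log2 fold change was -1.22 (adjusted p = 0.00333).

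The vesicular exporter Slc30a4 and the mitochondrial Slc30a9 came close to the threshold with values in the other direction. Slc30a4 stood at 41.8, 46.8 and 38.4 CPM in the CON mice and at 52.8, 57.9 and 50.1 CPM in the T + E2 mice (log2 fold change 0.34, SE 0.11, adjusted p = 0.0574). Slc30a9 stood at 54.2, 59.0 and 52.4 CPM and at 65.3, 71.1 and 66.4 CPM, respectively (0.29, SE 0.09, adjusted p = 0.0546). The groups overlapped in neither gene.

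The exporters of the early secretory pathway, which supply zinc to enzymes such as alkaline phosphatases, gave no call. Slc30a5 stood at 93.5, 110.5 and 112 CPM in the CON mice and at 131, 112 and 119.6 CPM in the T + E2 mice, and the log2 fold changes were 0.20 for Slc30a5 (adjusted p = 0.231), 0.04 for Slc30a6 and 0.08 for Slc30a7. Slc30a10, which exports manganese, stood at 22.2, 23.7 and 29.3 CPM in the CON mice and at 18.9, 20.2 and 38.0 CPM in the T + E2 mice. T + E2 mouse 3 was the highest of all mice and the other T + E2 mice the lowest, which gave a log2 fold change of 0.03 (SE 0.26), or -0.36 (adjusted p = 0.138) without that mouse.

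Slc11a2 encodes DMT1, which carries iron and other divalent metals across the plasma membrane and out of endosomes. It stood at 152, 150.2 and 172 CPM in the CON mice and at 133, 106 and 107 CPM in the T + E2 mice. The groups did not overlap and the gene was 1.37-fold lower (log2 fold change -0.45, SE 0.12, adjusted p = 0.0304). With 1 mouse left out the adjusted p ranged from 0.0203 to 0.102 and it was under the threshold only without T + E2 mouse 1, and without both mice with seminal vesicle transcripts it was 0.139. Slc11a1, a metal transporter of the phagosomes of macrophages, stood at 5.36, 4.80 and 5.596 CPM in the CON mice and at 6.09, 5.72 and 7.47 CPM in the T + E2 mice (log2 fold change 0.29, SE 0.18, adjusted p = 0.293).

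**Figure D3:**
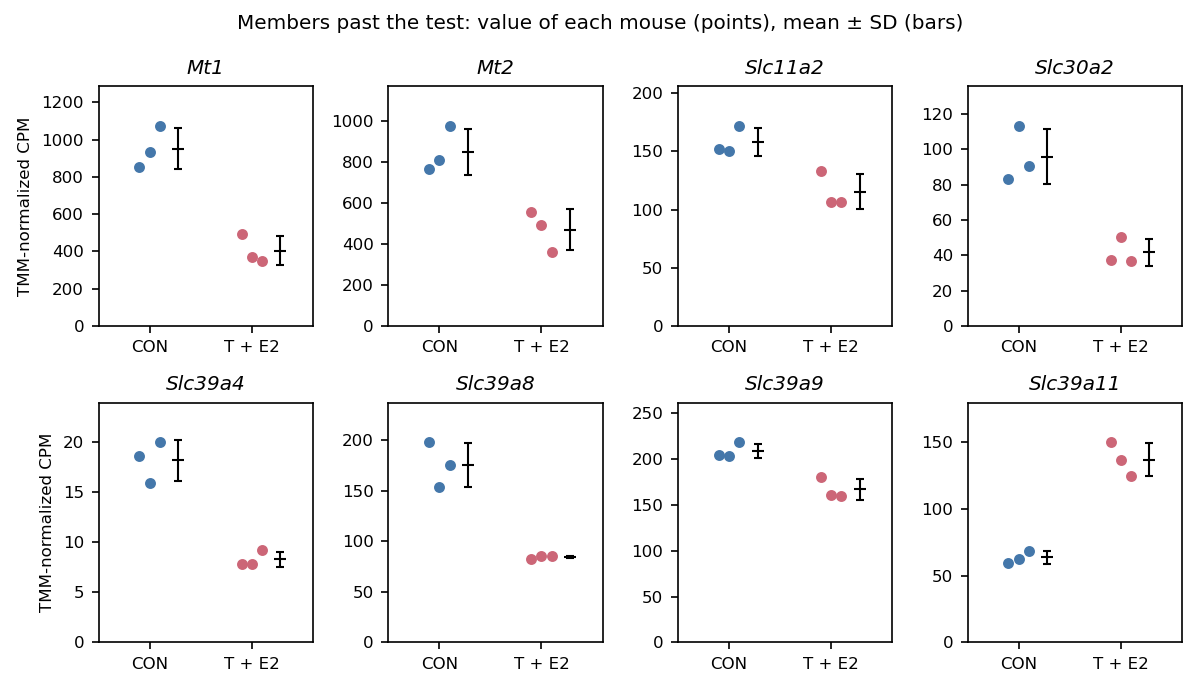
TMM-normalized CPM (vertical axis, from 0) of the 8 genes past the test, with 1 point per mouse and bars for the mean ± SD of 3 mice. The groups do not overlap in any panel, and T + E2 mice lie lower in every gene but Slc39a11, where they lie at 125 to 149.5 CPM against 59.5 to 68.7 CPM.

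The remaining 5 genes had too few reads to be tested. No read was counted on Slc30a8, the transporter of insulin granules, or on Slc39a5 in any mouse, and Slc30a3, which fills synaptic vesicles with zinc, had at most 2 counts in a mouse. Slc39a12 had 0, 4 and 4 counts in the T + E2 mice and 0 in each CON mouse, and Mt4 is given above.

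Levels can be compared between genes only per length. By FPKM as deposited, Mt1 stood at 1782 ± 183 in the CON group and at 735 ± 123 in the T + E2 group (SD, n = 3 each). Mt2 stood at 1546 ± 176 and 831 ± 155, respectively. Mt1 was thus first in the CON group and by the mean of 6 mice, and Mt2 was first in the T + E2 group. The next genes, Slc39a9, Slc30a5 and Slc39a1, had mean FPKM values over 6 mice of 35.9, 35.5 and 34.0. Their order differed between the groups: Slc39a9 and Slc30a5 stood at 40.4 ± 0.845 and 33.5 ± 3.09 in the CON group, but at 31.5 ± 1.28 and 37.4 ± 2.19 in the T + E2 group. The gene lengths behind these FPKM values were 0.433 to 2.79 times the exonic length in GENCODE, so the order depended on the length used. With CPM per kilobase of GENCODE exons, Mt2 came first (1123, mean of 6 mice), then Mt1 (544.0), Slc39a7 (65.3) and Slc39a1 (34.1), while Slc39a9 dropped to rank 8.

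**Figure D4:**
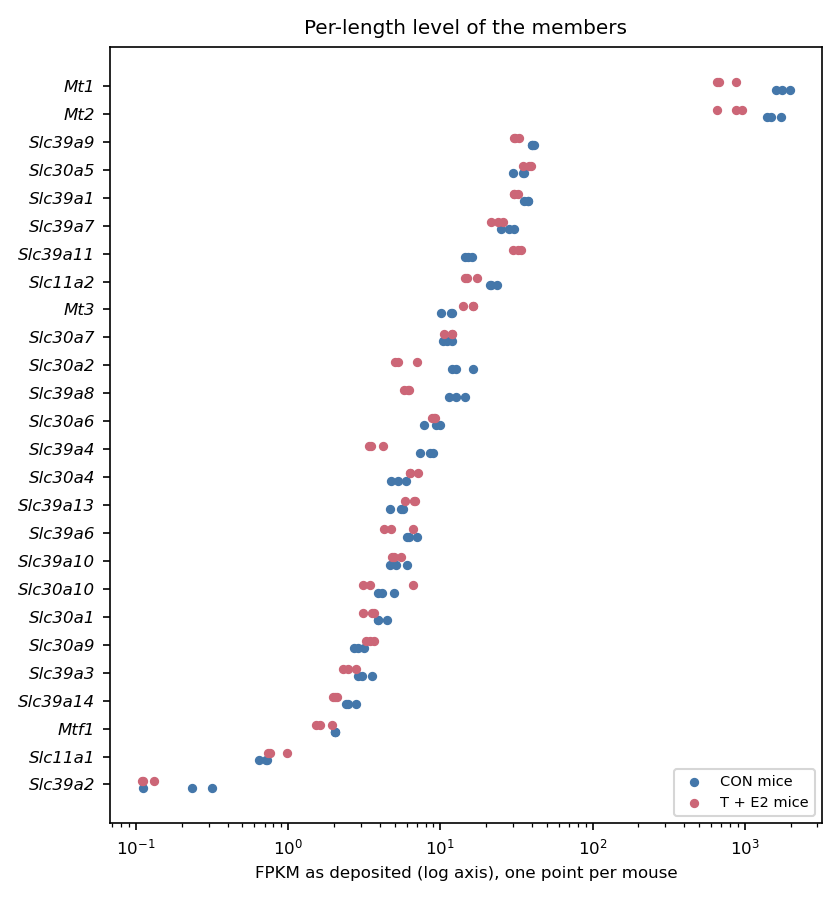
FPKM as deposited (log axis) of the 26 tested genes, with 1 point per mouse and genes ordered by their mean. Mt1 and Mt2 lie apart on the right, above the group of Slc39a9, Slc30a5 and Slc39a1 at 34.0 to 35.9 FPKM, and Slc39a2 lies lowest.

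Other genes of metal handling were counted from lists by function. For comparison, 10.4% of all tested genes were higher and 9.25% were lower. Of 10 tested genes that handle or need zinc outside the transporter families, 3 were higher and 2 were lower (median log2 fold change 0.25). The zinc enzyme Alpl, a tissue-nonspecific alkaline phosphatase, was 0.81 higher on the log2 scale (SE 0.18, adjusted p = 0.0191), as were Trpm7 (0.45), a channel for magnesium and zinc, and Mcoln1 (0.34), a channel of lysosomes. The zinc peptidases Mmp2 (-0.68, adjusted p = 0.00264) and Ace (-0.49, adjusted p = 0.0244) were lower. Without both mice with seminal vesicle transcripts only Alpl and Mmp2 of this list passed the test (Ace had an adjusted p = 0.0868). Ace was also lost in 4 of the 6 fits with 1 mouse left out. None of the 3 higher genes passed without CON mouse 3, nor without T + E2 mouse 1, where S100a9 was the only higher gene of the list.

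The copper and iron lists are likewise to be set against 10.4% higher and 9.25% lower among all tested genes. Of 10 tested genes of copper handling, 2 were higher and 0 were lower (median 0.11). Atp7a, the copper pump of the secretory pathway, stood at 36.8, 27.5 and 20.4 CPM in the CON mice and 71.7, 80.6 and 69.7 CPM in the T + E2 mice (log2 fold change 1.39, SE 0.19, adjusted p = 0.00235), and Steap4, a reductase of iron and copper, rose by 1.03 (adjusted p = 0.000585). Of 17 tested genes of iron handling, 4 were higher and 1 was lower (median 0.05). Heph, a copper-dependent ferroxidase that works with iron export, stood at 8.28, 13.1 and 10.6 CPM in the CON mice and 90.3, 78.1 and 52.1 CPM in the T + E2 mice, a log2 fold change of 2.78 (SE 0.24, adjusted p = 0.000233). Hfe (0.84), Hmox1 (0.63) and Cp (0.55) were also higher, and Slc25a28, a mitochondrial iron carrier, was lower (-0.68). Hmox1 and Cp were lost without both mice with seminal vesicle transcripts (adjusted p = 0.15 and 0.205). Over the zinc, copper and iron lists together 9 genes were higher, but only 5 without both mice with seminal vesicle transcripts, 5 without CON mouse 2, 4 without CON mouse 3 and 5 without T + E2 mouse 2.

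Metallothionein genes are also known to respond to glucocorticoids and to oxidative stress, so genes commonly used as readouts of each were counted. Among all tested genes 10.4% were higher and 9.25% were lower. Of 8 tested glucocorticoid-responsive genes, 4 were higher and 0 were lower (median 0.32): Cebpd (0.99), Fkbp5 (0.95), Tsc22d3 (0.72) and Sgk1 (0.51). Klf9 (0.13), Zbtb16 (-0.0067), Per1 (-0.15) and Dusp1 (-0.37) did not pass the test. Fkbp5 is also a known androgen-responsive gene. It alone passed the test without both mice with seminal vesicle transcripts, where the adjusted p was 0.0963 for Cebpd, 0.067 for Tsc22d3 and 0.051 for Sgk1. Tsc22d3 and Sgk1 were both lost as well with limma, with scaling by total counts and without CON mouse 1, CON mouse 3, T + E2 mouse 2 or T + E2 mouse 3, which left 2 genes each time. Of 8 tested genes responsive to Nrf2, the oxidative stress factor, 5 were higher and 0 were lower (median 0.42), led by Gsr (2.49, SE 0.11, adjusted p = 1.37e-05), which reduces glutathione, and Slc7a11 (1.98, adjusted p = 0.000841), which imports cystine. Without both mice with seminal vesicle transcripts, and likewise without CON mouse 2 or CON mouse 3, only these 2 passed the test, and without T + E2 mouse 2 these and Txnrd1 did. Mt1 and Mt2 were lower in the same mice, and the part of glucocorticoids or oxidative stress in this was not tested.

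**Figure D5:**
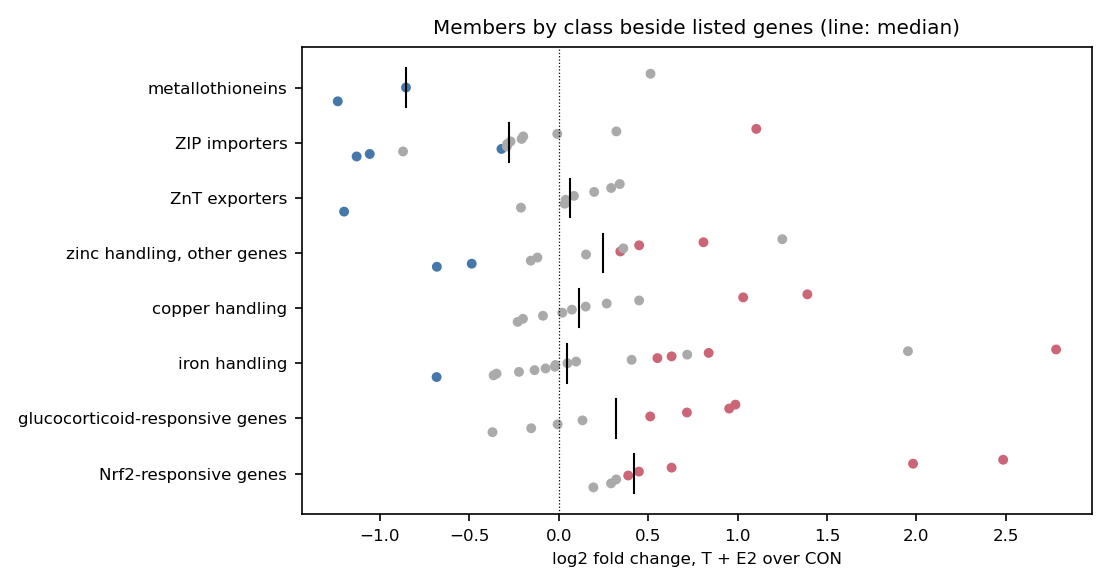
Log2 fold change (T + E2 over CON, horizontal axis) of every tested gene by class or list, with 1 point per gene, a line at each median, blue and red for genes lower or higher at an adjusted p under 0.05 and grey for the others. The medians of the metallothioneins (-0.85) and ZIP genes (-0.28) lie below 0, and those of the glucocorticoid-responsive (0.32) and Nrf2-responsive genes (0.42) lie above 0.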

How the data were processed

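RNA-seq was available for the prostates of 6 mice, 3 per group, with groups and replicate numbers taken from the sample labels. The authors deposited raw read counts per gene, whole numbers without normalization, and FPKM values, which the authors derived from counts, gene length and library size. The submitters' processing notes name TopHat, Bowtie2 and HTSeq without versions; the build, annotation and strand setting are not given in the sources used here. The study's methods use DESeq2 and call DEGs at an adjusted p under 0.05 with a log2 fold change beyond 1 in either direction.

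Counts were fitted in R 4.3.3 with edgeR 4.0.16 (filterByExpr with minimum count 10 and minimum total 15, TMM scaling, quasi-likelihood test, Benjamini-Hochberg adjustment over all 15580 tested genes). CPM values are TMM-normalized, and standard errors are the log2 fold change over the root of F. The biological coefficient of variation was 18%. With 3 mice per group, p-values rest on the spread between individual mice. All genes of the rule were accounted for; those past the test and the most abundant ones were given per mouse, and up to 4 genes past the test with the largest change were named from each list. Mcoln1 and Cp were named beyond this rule, after their values were seen, to complete the counts of their lists. The genes and lists were chosen with earlier results of these data known. Alternatives were DESeq2 1.42.0, limma 3.58.1 on log2(FPKM + 0.1) and log2(FPKM + 1) for genes that reached an FPKM of 0.1 in 3 mice, median-of-ratios and total-count scaling, no filter on low counts, a replicate block, and leaving out each mouse once. Leaving out both mice with seminal vesicle transcripts, and summing Slc39a7 with Gm20427, were chosen after seeing the data.

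Positions were compared with GENCODE M21: 21 of 31 genes had the same start and end, the largest difference was 532 bases, and coordinates are therefore given on GRCm38. Transcripts at least 90% identical over at least 300 bases (BLAST 2.17.0) were found for Slc39a1 (a pseudogene with 71 counts in all mice), Slc39a7, Slc39a10 and Slc11a1. Plots used Python 3.11.15 and matplotlib 3.10.9.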

Additional observations from a re-analysis of the deposited data

How the results depend on the processing

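Mt1, Slc30a2, Slc39a4, Slc39a8 and Slc39a11 kept their direction and an adjusted p under 0.05 in every alternative that was run. No gene past the test reversed. With limma on log2(FPKM + 0.1) and on log2(FPKM + 1) 2 genes were higher, Mt3 being added, and with the latter 2 were lower DEGs. Without both mice with seminal vesicle transcripts 4 genes were lower and 5 genes of the metal handling lists were higher, and with the replicate block the latter number was also 5. Leaving out 1 mouse gave 5 to 6 genes lower and 1 higher, 3 to 4 DEGs lower and 1 higher, and 4 to 10 genes of the metal lists higher and 2 to 4 lower. Same-numbered mice did not deviate together (r = -0.05, 0.03 and 0.05), so the numbers were not taken as pairs; the block reduced the calls among all genes from 3061 to 2174, and Slc11a2 (adjusted p = 0.062) and Slc39a9 (0.0904) were no longer past the threshold. The reversals concerned genes near 0 that did not pass the test: Slc30a10 (-0.066 and -0.045 with limma, -0.026 with the replicate block, -0.36 to 0.21 with 1 mouse left out), Slc39a10 (0.11 without both mice with seminal vesicle transcripts, -0.096 to 0.088 with 1 mouse left out) and Slc30a6 (-0.065 to 0.12 with 1 mouse left out). The cause was not tested. Scaling by total counts moved the median log2 fold change of all genes to -0.04. Depth limits Slc39a2 and the 5 untested genes, the latter with at most 4 counts in a mouse.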

Other observations

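The summed FPKM of all ZIP genes was 164.7 ± 4.94 in the CON group, compared with 149.6 ± 4.51 in the T + E2 group (SD, n = 3 each), with no overlap between the groups. The summed FPKM of all ZnT genes was 84.0 ± 7.16 and 81.6 ± 0.529, respectively, with overlapping groups. The ZIP sums of the 6 mice were 159, 167 and 168 in the CON group against 153, 144 and 152 under hormones, and neither difference was tested.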
